A study of Mus musculus with 2 samples.

Results

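The classical and alternative pathways of bile acid synthesis were followed through 10 enzyme genes in mouse liver, Cyp7a1, Cyp8b1, Cyp27a1, Cyp7b1, Hsd3b7, Akr1d1, Acox2, Amacr, Slc27a5 and Baat. They were taken as the gene probes whose RefSeq transcript maps to these symbols, which gave 11 probes of 39401 on the array and 10 genes of the 20652 that could be named. All 10 were well above background on both arrays and so belong to the 14288 genes with a value in both pools. Livers came from male mice that were 8 weeks old when an adenovirus was given into the tail vein, at 1e9 plaque forming units. In the Ad-378 group the virus is labelled as overexpressing the microRNA miR-378, and in the Ad-Ctrl group the mice received the corresponding control adenovirus. Each group is 1 pool of the livers of 5 mice on 1 single-colour Agilent array. Per the protocols both groups were collected at 2 weeks, whereas the Ad-378 sample is described as collected at 3 weeks, so a difference in time cannot be told apart from the virus. The strain is not given in the sources used here. By its title the study asks how miR-378, which thyroid hormone influences, bears on bile acid synthesis in the liver.

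Bile acids are the main route by which the liver disposes of cholesterol. The classical pathway opens with hydroxylation of the sterol ring by Cyp7a1, and the alternative pathway with oxidation of the side chain by Cyp27a1 followed by ring hydroxylation by Cyp7b1. Both feed into the same ring enzymes, then into side-chain shortening in peroxisomes and joining to an amino acid, in mice mainly taurine. Cyp8b1 adds the hydroxyl group that makes cholic acid, so its activity relative to the other enzymes sets how much of the pool is cholic acid.

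With 1 array per group there was no spread between replicates, so the differences are descriptions of these 2 pools without a test. A level is the processed signal of a spot, a brightness on a linear scale, and can be compared between arrays only after scaling. The 75th percentile of all probes was a signal of 695 in the Ad-378 pool and 800 in the Ad-Ctrl pool, and log2 differences, always Ad-378 minus Ad-Ctrl, were taken after dividing by it. Levels of different probes are not set against each other, since each probe binds its target with its own strength. Where scaled signals are summed over a list, bright probes weigh most, and the sum is compared only between the pools. The scanner error of a difference was 0.20 log2 units for each of the 10 enzymes and covers measurement on the array only. The liver label was checked on hepatocyte markers, of which 9 of 10 had a probe and all 9 were measured, with none of them 2-fold apart. Their summed scaled signal was 1306 in the Ad-378 pool and 1175 in the Ad-Ctrl pool, and their median log2 difference was 0.18, with Apoa2 (0.35), Ttr (0.22) and Serpina1c (0.22) furthest from 0. In pooled tissue, fewer cells of a type and less RNA per cell cannot be told apart.

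The promoters of the genes near the ends of the range are shown first, because they are the part of these genes on which transcription factors of bile acid synthesis act. RefSeq sequences of assembly GRCm38.p6, running from 250 bases before to 50 bases after the start of transcription, were matched for 5 of the 10 genes, Cyp8b1, Cyp27a1, Hsd3b7, Akr1d1 and Acox2. The Cyp8b1 window is chr9:121916256-121916555 on the minus strand and the Akr1d1 window is chr6:37529923-37530222 on the plus strand. Capitals mark the motifs found by the search described next.
Cyp8b1: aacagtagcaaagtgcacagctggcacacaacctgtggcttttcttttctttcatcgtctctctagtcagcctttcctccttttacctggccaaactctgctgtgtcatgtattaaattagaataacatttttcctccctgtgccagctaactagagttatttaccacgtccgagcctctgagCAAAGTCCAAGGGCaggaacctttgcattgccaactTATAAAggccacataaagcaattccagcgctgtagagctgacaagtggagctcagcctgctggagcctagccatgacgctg
Akr1d1: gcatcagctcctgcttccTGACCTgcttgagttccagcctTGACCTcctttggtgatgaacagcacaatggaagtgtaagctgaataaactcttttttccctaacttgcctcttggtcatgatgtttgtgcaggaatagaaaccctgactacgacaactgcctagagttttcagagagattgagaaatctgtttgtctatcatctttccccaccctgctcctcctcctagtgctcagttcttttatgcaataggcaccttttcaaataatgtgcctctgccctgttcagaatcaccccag

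The letters of 5 motifs were searched on both strands, namely CAAGGNC, the core bound by NR5A2 (the liver receptor homolog), CAAAGTCCA, a core bound by HNF4A, TTCNNNGAA, the core bound by STAT factors including the growth hormone effector STAT5, AGGTCA, the half-site of many nuclear receptors including those for thyroid hormone, and TATAAA. In the Cyp8b1 window the HNF4A core began 67 bases and the NR5A2 core 60 bases before the start, so that they overlap by 2 bases, and TATAAA began 31 bases before it. All 3 matches ran on the strand of the gene. Of 32817 promoter windows of 300 bases, 0.475% held the HNF4A core, 17.8% the NR5A2 core and 13.6% TATAAA. An overlapping pair of sites for these factors is known in the promoters of Cyp8b1 genes. The Akr1d1 window held the half-site on the opposite strand, at 232 and at 210 bases before the start, and 16.3% of all windows held it. Of the other windows, that of Hsd3b7 held the STAT core 21 bases before the start (8.29% of all windows), and those of Cyp27a1 and Acox2 held none of the 5, which says only that these letters are not there.

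The classical pathway enzymes lay in opposite directions. Cyp7a1 (NM_007824), the rate-limiting hydroxylase of the classical pathway, had a signal of 9693 in the Ad-378 pool and 14726 in the Ad-Ctrl pool. After scaling its log2 difference was -0.40, or 0.758-fold, and 11653 of the 14288 genes had a higher difference. Cyp7a1 was thus lower in the Ad-378 pool, by about 2 scanner errors, and the value lay between -0.55 and -0.40 over 7 other ways of processing. Among these, averaging over probes and dropping the background filter could not move a gene with 1 probe. Cyp8b1 (NM_010012), the sterol hydroxylase of cholic acid synthesis, had a signal of 6921 in the Ad-378 pool and 2602 in the Ad-Ctrl pool. Its log2 difference was 1.61, or 3.06-fold, and only 99 genes had a higher one. The ratio of Cyp8b1 to Cyp7a1, in which any constant scaling of an array cancels, was 4.04-fold higher in the Ad-378 pool, a log2 value of 2.01 whose scanner error was 0.29.

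**Figure D1:**
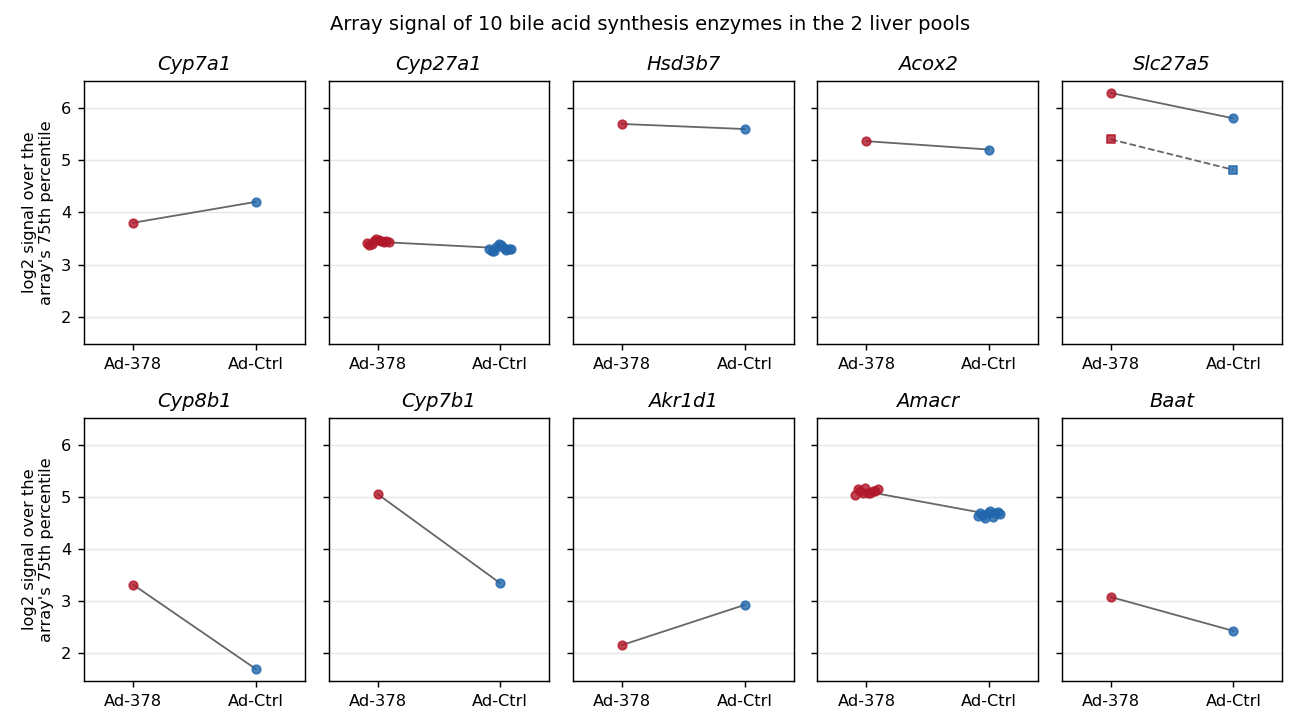
Signal of the 11 probes in the Ad-378 pool (red, left) and the Ad-Ctrl pool (blue, right), as log2 of the processed signal over the 75th percentile of the array. Each point is 1 spot, lines join the probe means, squares with a dashed line are the other Slc27a5 probe, and Cyp27a1 and Amacr were printed in 10 spots each. Cyp8b1 and Cyp7b1 have the steepest lines, and Cyp7a1 and Akr1d1 are the genes with the lower value in the Ad-378 pool.

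The alternative pathway was also uneven. Cyp27a1 (NM_024264), the mitochondrial sterol side-chain hydroxylase, was printed in 10 spots, whose signals ran from 7245 to 7843 with a median of 7551 in the Ad-378 pool and from 7671 to 8439 with a median of 7877 in the Ad-Ctrl pool. The scaled spots of the pools overlapped, since the lowest in the Ad-378 pool was 3.38 on the log2 scale and the highest in the Ad-Ctrl pool 3.40. The log2 difference was 0.12, within the scanner error, and it was -0.01 under loess normalization, so its direction is not settled. Cyp7b1 (NM_007825), the oxysterol hydroxylase of the next step, had a signal of 23113 in the Ad-378 pool and 8138 in the Ad-Ctrl pool. Its log2 difference of 1.71, or 3.27-fold, was the highest of the 10 enzymes on every setting that was run, and 74 of 14288 genes had a higher one. The ratio of Cyp7b1 to Cyp27a1 was 3.01-fold higher in the Ad-378 pool.

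Cyp7b1 is known as a gene with higher expression in male than in female mouse liver. Other genes of that kind were therefore read beside it. Of all 14288 genes, the share over 2-fold higher in Ad-378 livers was 2.83% and the share over 2-fold lower 4.51%. Of 9 measured male-biased genes, 4 were over 2-fold higher in Ad-378 livers and 0 over 2-fold lower, with a median log2 difference of 0.95, led by Hsd3b5 (4.05), Slco1a1 (2.44) and Elovl3 (2.37). Of 8 measured female-biased genes, 1 was over 2-fold higher and 4 over 2-fold lower, with a median of -1.03, the lowest being Sult2a1 (-5.24) and Sult1e1 (-4.14). Sult2a1 had a signal of only 12.5 in the Ad-378 pool and 544 in the Ad-Ctrl pool, and its difference was -3.03 after normexp background correction and -3.12 on the deposited matrix values. The 1 female-biased gene over 2-fold higher was Acot3 (1.15), which lay inside 2-fold after normexp (0.94), on the matrix values (0.95) and with the mean over its probes (0.81). The lists were uneven, since male-biased Cyp2d9 (-0.12) and female-biased Cyp2b13 (-0.07) and Cyp3a44 (-0.02) each lay within the scanner error. All mice are labelled male, and the part of sex-biased expression in the Cyp7b1 difference was not tested.

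The enzymes that modify the sterol ring after hydroxylation differed from each other. Hsd3b7 (NM_133943), the dehydrogenase and isomerase that acts on both pathways, had a signal of 36042 in the Ad-378 pool and 38789 in the Ad-Ctrl pool. Its log2 difference of 0.10 was within the scanner error, and it was -0.06 under quantile normalization and -0.09 under loess, so no direction is given. Akr1d1 (NM_145364), the reductase that sets the bent shape of the ring system, had a signal of 3105 in the Ad-378 pool and 6096 in the Ad-Ctrl pool. Its log2 difference of -0.77, or 0.586-fold, was the lowest of the 10 enzymes and lay inside 2-fold on all 7 other settings, where it ran from -0.87 to -0.77. The ratio of Akr1d1 to Hsd3b7 was 0.548-fold in the Ad-378 pool relative to the Ad-Ctrl pool.

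Of the peroxisomal side-chain enzymes, Amacr was higher in the Ad-378 pool and Acox2 had no settled direction. Acox2 (NM_053115), the oxidase of branched side chains, had a signal of 28662 in the Ad-378 pool and 29521 in the Ad-Ctrl pool, and its log2 difference of 0.16 was within the scanner error and -0.01 under loess. Amacr (NM_008537), the racemase that prepares the side chain for that oxidase, was printed in 10 spots, with signals from 22747 to 25039 (median 23978) in the Ad-378 pool and from 19489 to 21280 (median 20538) in the Ad-Ctrl pool. The spots of the pools did not overlap, before or after scaling, and the log2 difference was 0.43. Under quantile normalization and under loess the Amacr difference was 0.27, beside a scanner error of 0.20. Spots of this probe had an SD of 0.043 log2 units in the Ad-378 pool and 0.044 in the Ad-Ctrl pool, which describes printing and hybridisation of 1 array and not variation between mice.

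Both conjugation enzymes were higher in the Ad-378 pool. Slc27a5 (NM_009512), the bile acid CoA ligase, had 2 probes, with signals of 54396 and 29359 in the Ad-378 pool and 44706 and 22550 in the Ad-Ctrl pool. Its log2 differences were 0.49 and 0.58, so the probes gave the same direction at a similar size, although the brighter one was 0.29 under loess. Baat (NM_007519), the enzyme that joins the activated bile acid to its amino acid, had a signal of 5882 in the Ad-378 pool and 4313 in the Ad-Ctrl pool. Its log2 difference was 0.65, or 1.57-fold, with a range of 0.54 to 0.65 over the settings, and 994 genes had a higher one.

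**Figure D2:**
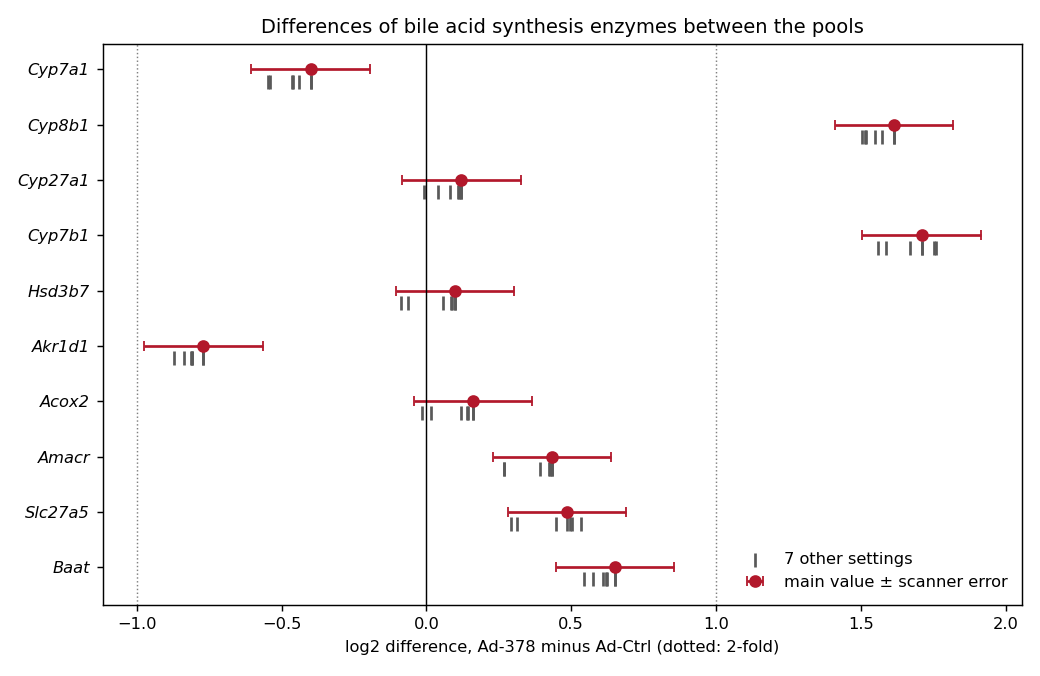
Log2 difference of each enzyme, Ad-378 minus Ad-Ctrl, as red points with bars of 1 scanner error, and its value under 7 other settings as grey ticks below. Dotted lines mark 2-fold. Cyp8b1 and Cyp7b1 lie beyond 2-fold on each setting, and only Cyp27a1, Hsd3b7 and Acox2 have ticks on both sides of 0.

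At a threshold of 2-fold, 2 of the 10 enzymes were higher in the Ad-378 pool, beside 2.83% of all 14288 genes, and 0 were lower, beside 4.51% of all genes. The same 2 enzymes, Cyp8b1 and Cyp7b1, were more than 3-fold higher (0.742% of all genes), and 0 were 3-fold lower (1.41%). At 1.5-fold Baat joined those above (8.79% of all genes) and Akr1d1 was the single member below (12.0% of all genes). The median over the 10 enzymes was 0.30, beside 0.04 over all genes. It was 0.15 under quantile normalization and 0.13 under loess, where the median of all genes was -0.00 and -0.03. Loess by construction removes a trend of the difference with brightness, and all 10 enzymes were brighter than the 75th percentile of both arrays. Of the 10 differences, 8 were positive and 2 negative, and 3 of the positive ones, those of Cyp27a1, Hsd3b7 and Acox2, had no settled direction.

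**Figure D3:**
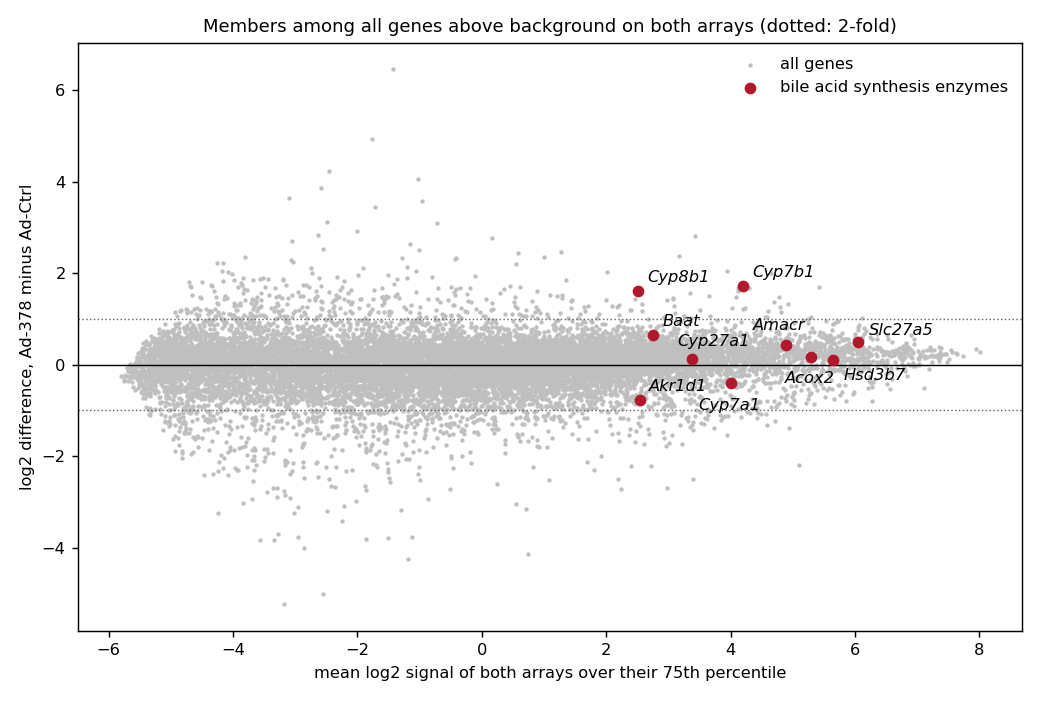
Log2 difference, Ad-378 minus Ad-Ctrl, against mean log2 signal for all 14288 genes above background on both arrays (grey), with the 10 enzymes in red and 2-fold as dotted lines. The enzymes lie in the bright part of the plot, with Cyp8b1 and Cyp7b1 above the upper dotted line and Akr1d1 and Cyp7a1 between 0 and the lower one.

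Further genes of bile acid synthesis were mostly higher in the Ad-378 pool. Of a list of 16, all were measured. In it 4 were over 2-fold higher, beside 2.83% of all genes, and 0 over 2-fold lower, beside 4.51%. A positive difference was found for 14, and the median was 0.68, beside 0.04 over all genes. The members beyond 2-fold were Ch25h, a cholesterol side-chain hydroxylase, Cyp46a1, the cholesterol hydroxylase known from brain, Acaa1b, a peroxisomal thiolase, and Stard4, a cholesterol carrier. Ch25h had a signal of 299 in the Ad-378 pool and 48.0 in the Ad-Ctrl pool, a log2 difference of 2.84 that was 1.93 on the deposited matrix values. Cyp46a1 had 446 in the Ad-378 pool and 182 in the Ad-Ctrl pool (2.83-fold), and Acaa1b had 31922 in the Ad-378 pool and 13185 in the Ad-Ctrl pool (2.79-fold). Stard4 had 1.13 at its brighter probe and 0.38 at the other, and the brighter probe gave 0.93 after normexp and 0.96 on the matrix values. The count beyond 2-fold was 3 in place of 4 on those settings and with the mean over probes. Cyp39a1, the oxysterol hydroxylase of the route that starts from Cyp46a1, differed by -0.01, and Cyp2c70, which makes the muricholic acids of mice, by 0.03, and the sign of both turned with the setting. Ch25h is also a gene of activated macrophages. The 7 measured macrophage markers, mostly of resident liver macrophages, all had a negative difference, with a summed scaled signal of 50.8 in the Ad-378 pool and 97.7 in the Ad-Ctrl pool, led by Cd5l (-1.12), Adgre1 (-1.04) and Marco (-0.91). Timd4 had no settled direction, at -0.13 with a scanner error of 0.37 and 0.04 after normexp, and 1 of the 3 Csf1r probes stood at 0.36. Acod1, a macrophage activation gene outside the lists and chosen after its value was seen, differed by 4.94. Its scaled log2 signal was 0.70 in the Ad-378 pool and a dim -4.24 in the Ad-Ctrl pool. A gene picked for its value gives no support to a reading of Ch25h. The part of macrophages in the Ch25h difference was not tested.

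Regulators of the pathway were read as a list of 20, of which 19 were measured, Onecut1 being too dim on both arrays. The median of the 19 was 0.05, beside 0.04 over all genes. Of the 19, 0 were over 2-fold higher in Ad-378 livers, beside 2.83% of all genes, and 2 over 2-fold lower, beside 4.51%. Those 2 were Med13, a Mediator subunit (-1.79), and Nr0b2, the small heterodimer partner that restrains Cyp7a1 and Cyp8b1 (-1.42). Nr0b2 had a signal of 105 in the Ad-378 pool and 322 in the Ad-Ctrl pool, and Med13 one of 25.7 in the Ad-378 pool and 103 in the Ad-Ctrl pool. Both signals were dim, and after normexp background correction Nr0b2 lay just inside 2-fold and Med13 differed by -0.76. Nr1h4, which encodes the bile acid receptor, differed by 0.49, Nr5a2 by -0.34 and Hnf4a by -0.16, the last pair being the genes of the factors whose cores were found before Cyp8b1. Fgfr4 and Klb, the hepatic receptor and co-receptor of the intestinal hormone that represses Cyp7a1, differed by -0.25 and 0.07. Ppara, the fatty acid receptor gene, differed by 0.86 at the brightest of its 3 probes, which ran from 0.67 to 1.52. The thyroid hormone receptor gene Thra was 1.99-fold higher at its brighter probe and differed by 0.28 on the log2 scale at another. Thrb, the other thyroid hormone receptor gene, had a log2 difference of 0.05 at the brighter of its probes and 0.92 at the dimmer.

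**Figure D4:**
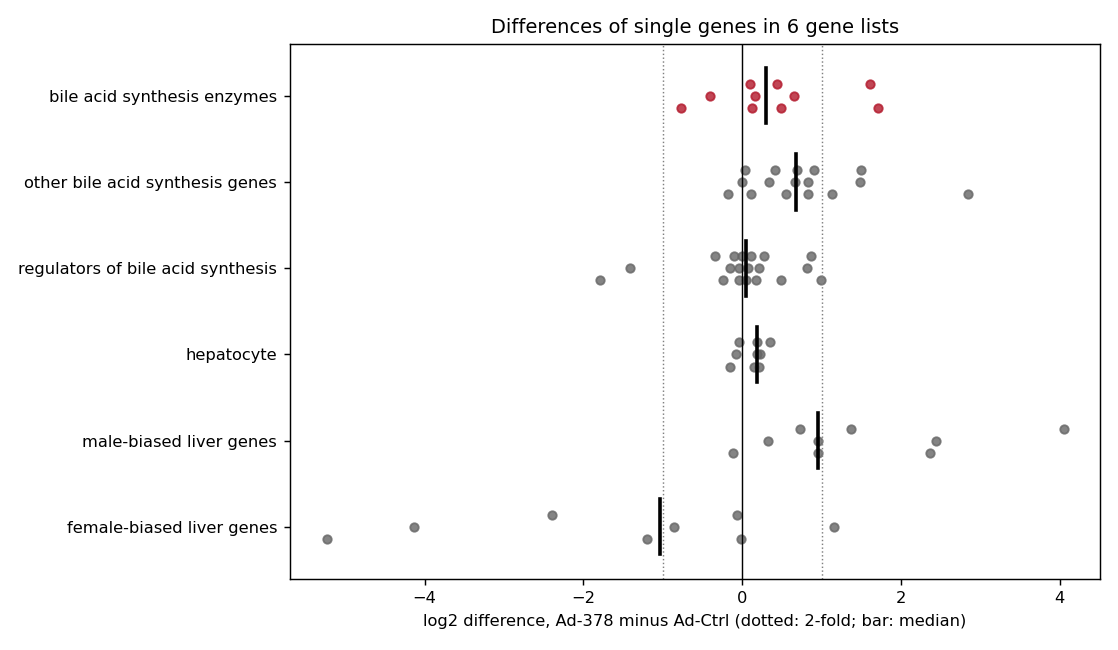
Log2 difference, Ad-378 minus Ad-Ctrl, of each measured gene in 6 lists, with the list median as a black bar and 2-fold as dotted lines. Points are spread vertically only to be told apart. The 10 enzymes run from -0.77 to 1.71 around a median of 0.30, the further synthesis genes have a median of 0.68, and the hepatocyte markers stay within 0.35 of 0.

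Markers of other cells in the tissue also differed between the pools. Of stellate cell and fibroblast markers 4 of 6 measured were over 2-fold lower in the Ad-378 pool (median -1.35), and of proliferation genes 5 of 5 were (median -2.25). Of all genes, 4.51% were over 2-fold lower and 2.83% over 2-fold higher. Pdgfrb of the first list lay inside 2-fold after normexp (-0.95) and on the matrix values (-0.99), and Top2a of the second after normexp (-0.86). The medians were -0.21 for 5 endothelial markers, -0.51 for 5 T and NK cell markers (2 of them over 2-fold lower), 0.57 for 3 B cell markers, 0.78 for 5 cholangiocyte markers and -0.13 for 3 erythroid genes. Over 2-fold higher in the Ad-378 pool were Cftr (1.75) and Spp1 (1.30) of the cholangiocyte markers, Ms4a1 (1.17) of the B cell markers and Alas2 (2.02), an enzyme of heme synthesis, of the erythroid genes. After normexp Cftr was 0.87 and Ms4a1 0.47, both inside 2-fold. The cholangiocyte marker Krt19 was lower, at -0.36 (-0.07 after normexp), and Krt7 was not well above background on either array. The erythroid genes Hbb-bt (-0.23) and Hba-a1 (-0.13) were slightly lower. Cd8a, a T cell marker over 2-fold lower (-1.14), lay inside 2-fold after normexp (-0.68) and on the matrix values (-0.76). The part of cell composition in the differences of the 10 enzymes was not tested.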

How the data were processed

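Total liver RNA of 2 pools was measured on 1-colour Agilent arrays with 44397 spots, 1377 of them controls. The authors deposited spot intensities (linear brightness), made with Agilent Feature Extraction (9.1 per the submitters' processing notes, 11.0.1.1 per the file headers). Per the file headers the processed signal was corrected for spatial trends on its own array and not scaled to the other array. Flags for background and outliers, which are other values deposited by the authors, were used as given. Per the labels' protocols the RNA kit was one for blood with globin removal, although the tissue is liver. The deposited series matrix intensities equal the raw median signal in 100% of values.

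Control spots and marked spots (123 per array) were left out, log2 signals of spots were averaged per probe, and the 75th percentile of the array was subtracted. Of 39401 probes, 27219 were named through RefSeq transcripts (GRCm38.p6), and only promoter sequences carry coordinates, because the arrays were designed on mm9. The probe used for a gene was the brightest of those detected above background in both pools. No test was run, and the number of arrays limits the precision. The scanner error combines the deposited error of both spots. In the normexp setting (offset 50, limma 3.58.1) spots whose local background was marked as an outlier were kept out of the fit, a choice made after seeing that a single such spot drove it. The loess span was 0.3. The steps were tested on simulated data.

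The enzymes and all lists were chosen with earlier results of these data known. The text names all 10 enzymes, the genes of the 2 pathway lists that were 2-fold apart, had the 4 largest differences or were listed by name in the rule, and the 3 genes with the largest differences of the hepatocyte, macrophage and sex-biased lists. The other cell lists are given by their medians, the genes over 2-fold higher, and the genes whose 2-fold call changed with the setting. Further genes of the sex-biased, stellate cell, cholangiocyte and erythroid lists are named to show how uneven these lists are. Python 3.11.15, numpy 2.4.6, pandas 2.3.3, statsmodels 0.14.6 and R 4.3.3 were used.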

Additional observations from a re-analysis of the deposited data

How the results depend on the processing

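The alternatives were quantile and loess normalization, the percentile over probes well above background, normexp, the series matrix values, the mean over probes, no background filter, and thresholds of 1.5-fold and 3-fold. All 70 values of single enzymes under the first 7 alternatives lay within 0.20 log2 units of the reported value. So did all 42 differences between enzymes. The 42 values are a few chosen pairs, each under the 7 alternatives, so most of the 45 pairs were not checked. Not all of these values were free to move. For the 9 enzymes with 1 probe, the mean over probes and no background filter give the reported value by construction. The percentile over probes well above background shifts all genes by the same amount, which cancels between enzymes. The median of the 10 enzymes was 0.15 under quantile normalization and 0.13 under loess, and that of the further synthesis genes was 0.57 under loess. Over all genes, 405 were over 2-fold higher and 645 over 2-fold lower, against 200 and 353 after normexp, 222 and 394 on the matrix values, and 1059 and 1164 with no filter. They numbered 1256 and 1721 at 1.5-fold, and 106 and 201 at 3-fold. At 1.5-fold 3 enzymes were higher and 1 lower in the Ad-378 pool, 9 further synthesis genes were higher and 0 lower, and 3 regulators were higher and 2 lower. At 3-fold 1 further synthesis gene was higher and 1 regulator lower. Among regulators, 1 was higher under quantile normalization and with the mean over probes, while 0 were lower after normexp and 1 on the matrix values. The cause was not tested. No paired analysis was possible because there is 1 sample a group.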
